A study of Mus musculus with 8 samples.

Results

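The immunoglobulin genes of the mouse were described in RNA of vesicles enriched from serum (exosomes, which many cell types release into blood). The members were set by a rule on gene symbols, drawn up with earlier results of these data known. The rule took every mouse row whose symbol starts with Ighv (the variable segments of the antibody heavy chain). It also took the heavy chain constant genes Ighm, Ighg1, Ighg2b, Ighg2c, Ighg3 and Igha, the kappa light chain constant gene Igkc, and Jchain. This gave 193 members, 185 variable segments and 8 other genes, out of 31300 mouse genes and 52016 genes listed for mouse and dog together. All mice were NCr nu/nu, an athymic strain. Tumour-bearing mice had received 10 µl with 100000 cells of a canine osteosarcoma line, OSCA-32 or OSCA-40, in the tibia, and PBS mice 10 µl of phosphate-buffered saline.

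The 8 libraries form 4 groups of 2: OSCA-32 at week 8, OSCA-40 at week 8, PBS at week 8, and serum of all mice taken at week 0, before any injection. Each library comes from pooled serum, and the labels do not say that the libraries of a group hold different animals, so the spread within a group may be technical. Each tumour group stands for 1 cell line. No source used here states the age of the mice.

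The deposited values are whole numbers that sum to between 977106 and 989183 in every library over both species, so they are relative amounts, and the depth behind them is unknown. A value of 0 is given as listed at 0. Mouse genes held 55.3% and 56.7% of the total in the OSCA-32 libraries, 31.6% and 29.3% in the OSCA-40 libraries, 85.3% and 84.8% in the PBS libraries, and 83.9% and 82.6% in the week 0 libraries. A mouse gene that keeps its share of mouse RNA therefore has a lower deposited value in the tumour groups. For that reason sums are given both as deposited and in parts per 1000000 of the library's mouse total (ppm), and tests used libraries scaled to each other. In these bulk samples, fewer cells of a type and less RNA per cell cannot be told apart. The vesicle genes Cd9, Cd63, Cd81, Tsg101 and Pdcd6ip were listed above 0 in all 8 libraries, with Cd9 between 26 and 234 (genes chosen after other values were seen).

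An antibody heavy chain is encoded by a variable exon that B cells assemble from a variable, a diversity and a joining segment, followed by a constant region that sets the class. In a B cell or plasma cell, the rearranged variable segment and the constant region lie on the same messenger RNA, and plasma cells make that RNA in very large amounts. Segments that were not rearranged remain in the germline, and pseudogene segments cannot encode a chain. Athymic mice lack a working thymus and are short of T cells, but they have B cells.

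The variable segments lie on chromosome 12 between 113572927 and 116010093 (GRCm38, GENCODE M21), and 183 of the 185 are on the minus strand. The annotation calls 113 of them functional, 70 pseudogenes and 2 of the leader-variable type. Those 2 rows carry the names Ighv1-13 and Ighv5-8 and overlap pseudogene rows of the same names, so reads of these 4 rows could be split between them. The heavy chain constant genes lie below the segments on the same chromosome, in the order Igha, Ighg2c, Ighg2b, Ighg1, Ighg3, Ighm from 113254830 to 113422730. Igkc lies on chromosome 6 from 70726435 to 70726966, and Jchain on chromosome 5 from 88519809 to 88527891.

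Many segments are near copies of each other, which matters because the submitters' processing notes name kallisto, a tool that divides reads among transcripts with shared sequence. Of the 185 segments, 167 shared at least 1 stretch of 31 bases with another listed mouse gene, 65 shared at least 50% of their stretches and 18 shared none. The median share was 40.7%. The following GENCODE M21 coding exons, 5′ to 3′ on the minus strand, show how far a value can be tied to 1 segment. Capitals mark bases inside a 31-base stretch that no other listed mouse gene holds, and lower case marks bases that are only in shared stretches. Ighv1-12, at chr12:114615850-114616143, is the segment called by the test below, and 272 of its 294 bases are in capitals.
Ighv1-12: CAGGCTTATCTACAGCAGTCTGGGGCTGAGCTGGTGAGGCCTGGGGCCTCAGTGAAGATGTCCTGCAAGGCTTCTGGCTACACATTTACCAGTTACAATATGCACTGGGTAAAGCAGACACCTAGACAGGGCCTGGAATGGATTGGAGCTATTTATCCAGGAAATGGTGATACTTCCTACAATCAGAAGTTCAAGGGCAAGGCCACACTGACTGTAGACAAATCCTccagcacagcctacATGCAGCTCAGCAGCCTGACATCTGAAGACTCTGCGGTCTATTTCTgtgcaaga
The segment with the highest mean, Ighv1-24 at chr12:114772928-114773221, had 166 of 294 bases in capitals. Its nearest relative is Ighv1-16 at chr12:114665872-114666165, and 6 of the 294 bases differ between them (98.0% identity).
Ighv1-24: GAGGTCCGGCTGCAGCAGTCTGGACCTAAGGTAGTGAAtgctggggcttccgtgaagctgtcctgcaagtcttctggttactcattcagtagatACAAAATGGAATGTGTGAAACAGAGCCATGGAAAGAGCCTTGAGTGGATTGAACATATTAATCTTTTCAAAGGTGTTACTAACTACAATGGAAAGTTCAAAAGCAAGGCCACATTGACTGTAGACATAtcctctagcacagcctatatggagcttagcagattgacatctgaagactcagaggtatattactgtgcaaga
Ighv1-16: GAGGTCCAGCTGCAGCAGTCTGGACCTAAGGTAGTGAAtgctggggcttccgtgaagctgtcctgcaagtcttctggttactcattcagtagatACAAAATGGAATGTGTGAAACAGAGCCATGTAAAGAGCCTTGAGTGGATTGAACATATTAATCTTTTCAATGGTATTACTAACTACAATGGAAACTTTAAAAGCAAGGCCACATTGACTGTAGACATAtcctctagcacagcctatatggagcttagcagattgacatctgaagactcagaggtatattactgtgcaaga
Ighv1-62-2 had no base in capitals, because the exon of Ighv1-71 at chr12:115742205-115742506 holds the same 302 bases. The first 300 are shown, at chr12:115446411-115446710.
Ighv1-62-2: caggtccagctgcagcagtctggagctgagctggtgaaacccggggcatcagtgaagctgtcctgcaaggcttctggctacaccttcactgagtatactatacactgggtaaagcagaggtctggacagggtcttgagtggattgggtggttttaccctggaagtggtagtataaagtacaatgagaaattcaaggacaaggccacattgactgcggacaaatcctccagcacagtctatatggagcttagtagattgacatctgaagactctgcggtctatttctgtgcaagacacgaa

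The variable segments as a group were listed at low values in every library. Their sum was 480 and 478 in the OSCA-32 libraries, 224 and 268 in the OSCA-40 libraries, 795 and 771 in the PBS libraries, and 662 and 643 in the week 0 libraries. On this deposited scale all 4 tumour libraries were below all 4 tumour-free ones. Relative to the mouse total the sum was 869.7 ± 18.1 ppm in OSCA-32, 822 ± 147 ppm in OSCA-40, 942 ± 16.03 ppm in PBS and 801 ± 7.41 ppm at week 0 (SD, n = 2 each). On that scale the 2 OSCA-40 libraries, at 718 and 926, spanned the OSCA-32 and week 0 values and lay below PBS, whose libraries were at 954 and 931. The OSCA-32 libraries, at 883 and 857, lay between the week 0 libraries, at 806 and 796, and the PBS libraries. After the scaling used for the tests, the OSCA-40 sums were 658 and 821, on either side of PBS, at 764 and 732. The scaled OSCA-32 sums, at 696 and 674, stayed below PBS and above week 0, at 662 and 632.

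The 8 constant and joining chain genes together summed to 29 and 31 in OSCA-32, 17 and 20 in OSCA-40, 56 and 53 in PBS, and 51 and 47 at week 0. All 8 were listed at 1 or more in all 8 libraries. Relative to the mouse total they held 54.4 ± 1.60 ppm in OSCA-32, 61.8 ± 10.3 in OSCA-40, 65.6 ± 2.25 in PBS and 60.1 ± 2.79 at week 0 (SD, n = 2 each). The OSCA-32 libraries were the lower pair against PBS on this scale as well, while the OSCA-40 libraries lay on either side of the PBS and week 0 values.

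**Figure D1:**
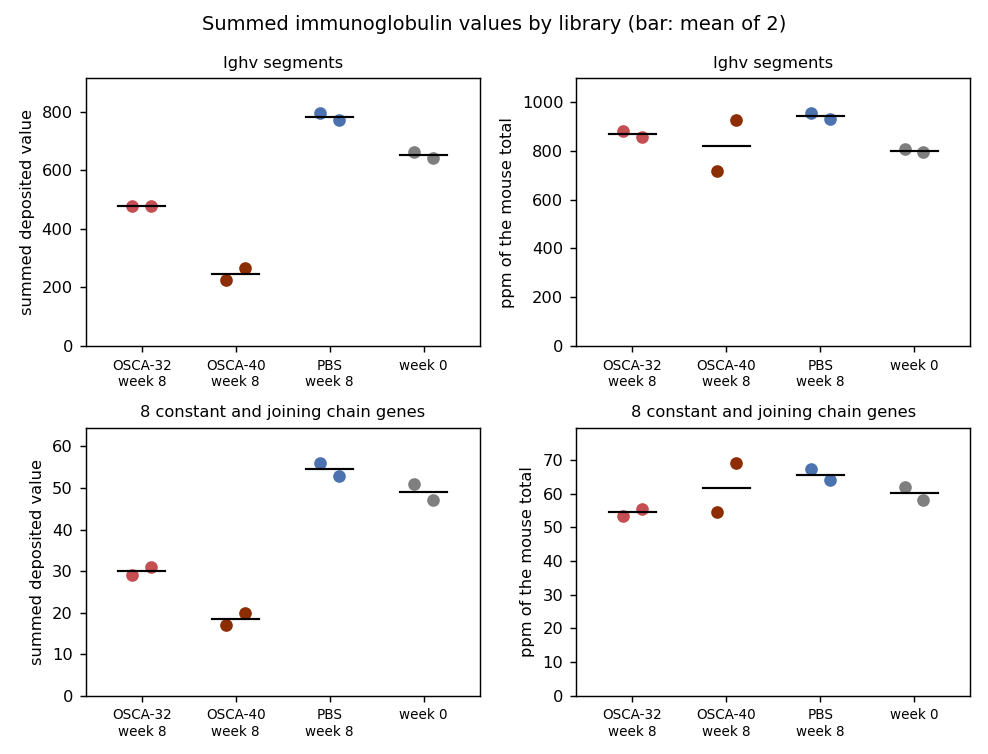
Summed values of the 185 variable segments (top) and of the 8 constant and joining chain genes (bottom) in each library, as deposited (left) and in ppm of the library's mouse total (right). Points are libraries and bars the mean of 2. The tumour libraries lie below the tumour-free ones on the left, and the groups come closer on the right, where the OSCA-40 libraries are at 718 and 926 for the segments.

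A typical variable segment was listed at or just below the level of the median mouse gene. The median over the 185 segments was 2 in both OSCA-32 libraries, 1 in both OSCA-40 libraries, 4 in both PBS libraries and 3 in both week 0 libraries. Over all mouse genes the medians were 3 in OSCA-32, 1 in OSCA-40, 4 in PBS and 4 at week 0, in both libraries of each group. At 1 or more were 120 and 126 segments in OSCA-32, 100 and 112 in OSCA-40, 162 and 146 in PBS, and 148 and 149 at week 0. Only 25 segments were listed above 0 in all 8 libraries, and every one of the 185 was listed above 0 in at least 1.

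Segments that cannot encode a chain were also listed, and which class was higher depended on the measure. The mean over 8 libraries had a median of 2.38 over the 113 functional segments and 2.81 over the 70 pseudogenes. Listed above 0 in all 8 libraries were 16 of 113 functional segments and 9 of 70 pseudogenes. Per segment, functional segments held 4.75 ppm of the mouse total in OSCA-32, 4.51 in OSCA-40, 5.36 in PBS and 4.37 at week 0. The pseudogenes held 4.68 ppm in OSCA-32, 4.46 in OSCA-40, 4.76 in PBS and 4.38 at week 0. Pseudogenes of other kinds had a median of means of 2.13, and protein-coding mouse genes one of 3.63. These are values on a scale that behaves as per transcript length. No test was made between these gene classes.

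**Figure D2:**
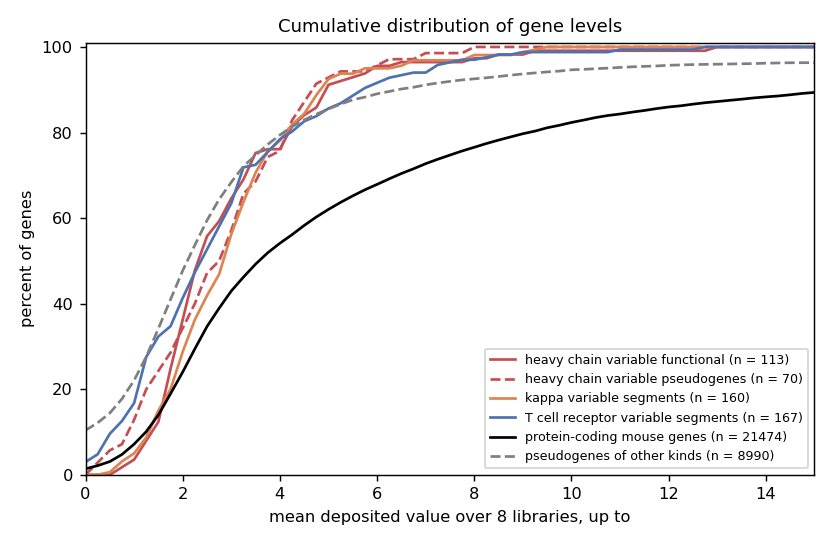
Cumulative percent of genes (vertical axis) whose mean deposited value over the 8 libraries is at most the value on the horizontal axis, for functional and pseudogene heavy chain segments, kappa and T cell receptor segments, protein-coding genes and other pseudogenes. At a mean of at most 8 the curves of antigen receptor segments are at 97.0% to 100%, against 76.6% for protein-coding genes, and at the low end they differ (7.97% of functional and 20% of pseudogene heavy chain segments at a mean of at most 1.25), with medians of means between 2.38 and 3 for heavy, kappa and T cell receptor segments and 3.63 for protein-coding genes.

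Other antigen receptor segments were listed as well. The 160 kappa variable segments had a median of means of 3, and the 167 variable segments of the T cell receptor had one of 2.5. Per segment, heavy chain segments held 4.70 ppm of the mouse total in OSCA-32, 4.44 in OSCA-40, 5.09 in PBS and 4.33 at week 0. Kappa segments held 5.39 ppm in OSCA-32, 4.27 in OSCA-40, 5.09 in PBS and 4.72 at week 0. T cell receptor segments, which are rearranged in developing T cells, held 5.06 ppm in OSCA-32, 4.43 in OSCA-40, 4.85 in PBS and 4.06 at week 0. None of the 3 classes was the highest in all 4 groups.

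The ratio of the summed segments to the 6 heavy chain constant genes does not depend on how libraries are scaled. It was 22.9 and 22.8 in OSCA-32, 17.2 and 20.6 in OSCA-40, 20.9 and 24.1 in PBS, and 20.1 and 25.7 at week 0. The group mean was 22.8 ± 0.0673 in OSCA-32, 18.9 ± 2.39 in OSCA-40, 22.5 ± 2.24 in PBS and 22.9 ± 4.0 at week 0 (SD, n = 2 each), and these means differ by less than the 2 libraries of week 0. Per gene, a variable segment had between 0.559 and 0.834 times the value of a heavy chain constant gene. With Igkc and Jchain added to the constants, the ratio was 15.99 ± 0.801 in OSCA-32, 13.3 ± 0.158 in OSCA-40, 14.4 ± 0.248 in PBS and 13.3 ± 0.495 at week 0, so that both OSCA-32 libraries, at 16.6 and 15.4, were above the other 6, which lay at or below 14.5. Because these ratios are scores over the members, no p-value is given for them.

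For the kappa chain and the T cell receptor, the ratio was higher in all 4 tumour libraries than in all 4 tumour-free ones. The 160 kappa segments over Igkc gave 113 and 99.8 in OSCA-32, 106 and 100 in OSCA-40, 59.7 and 46.3 in PBS, and 61.6 and 75.0 at week 0. The divisor is the single gene Igkc, listed at 2 to 5 in tumour libraries and 9 to 15 in tumour-free ones, so a step of 1 in a whole-number value moves the ratio widely. For the T cell receptor, 167 segments over the 4 constant genes gave 42.8 and 41.9 in OSCA-32, 35.6 and 32.8 in OSCA-40, 30.8 and 31.9 in PBS, and 32.3 and 24.95 at week 0, so the lowest tumour library lay just above the highest tumour-free one. These 4 constant genes summed to 6 to 12 in tumour libraries and 18 to 22 in tumour-free ones. A step of 1 in a whole-number value therefore moves this ratio too, and the gap is narrow. Per gene, a kappa segment had 0.290 to 0.706 times the value of Igkc, and a T cell receptor segment 0.598 to 1.03 times that of a T cell receptor constant gene.

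**Figure D3:**
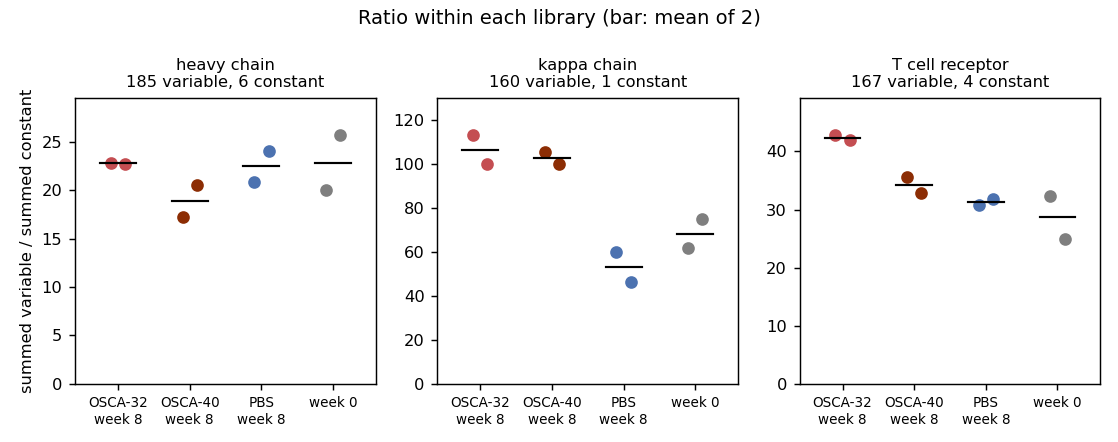
Ratio of summed variable segments to summed constant genes in each library for the heavy chain, the kappa chain and the T cell receptor. Points are libraries and bars the mean of 2. Heavy chain ratios overlap between groups (17.2 to 25.7), kappa ratios are 99.8 to 113 in tumour libraries and 46.3 to 75.0 in tumour-free ones, and T cell receptor ratios are 32.8 to 42.8 in tumour libraries and 24.95 to 32.3 in tumour-free ones.

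Among the 6 heavy chain constant genes, Ighg2b, which encodes the constant region of the IgG2b class, had the highest value in each of the 8 libraries. Its values were 8 and 8 in OSCA-32, 5 and 5 in OSCA-40, 12 and 10 in PBS, and 11 and 8 at week 0. Of protein-coding mouse genes, 77.4% had a lower mean. After scaling, limma gave log2 fold changes against PBS of 0.12 ± 0.27 for OSCA-32 (adjusted p = 0.937) and 0.48 ± 0.27 for OSCA-40 (adjusted p = 0.366), where the error is the standard error. With library totals alone in place of scaling, the OSCA-40 value turned to -1.01.

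Igkc, the constant region of kappa light chains, was listed at 4 and 5 in OSCA-32, 2 and 2 in OSCA-40, 11 and 15 in PBS, and 9 and 9 at week 0. No tumour library reached a tumour-free one on the deposited scale. After scaling, the log2 fold change against PBS was -0.84 ± 0.33 for OSCA-32 (limma adjusted p = 0.427) and -0.92 ± 0.33 for OSCA-40 (limma adjusted p = 0.17), neither past the threshold of 0.05. Both comparisons share the PBS libraries. The limma adjusted p for OSCA-40 was 0.03 without the filter on low values, and library totals alone gave -1.35 for OSCA-32 (adjusted p = 0.0302) and -2.22 for OSCA-40 (adjusted p = 0.000653).

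Jchain, which links IgM and IgA into polymers, was at 4 and 5 in OSCA-32, 2 and 5 in OSCA-40, 7 and 6 in PBS, and 9 and 13 at week 0. As deposited, week 0 held the 2 highest values, and no tumour library reached the PBS ones. After scaling, the second OSCA-40 library was the highest, at 15.3. The second OSCA-32 library, at 7.05, was then also above the PBS libraries, at 6.73 and 5.69. Ighm, the constant region of IgM and of the receptor of naive B cells, was at 1 and 1 in OSCA-32, 1 and 2 in OSCA-40, 6 and 4 in PBS, and 4 and 1 at week 0. As deposited, its 2 week 0 libraries span the range from the lowest tumour value to the lower PBS value. Igha, the constant region of IgA, was at 2 and 3 in OSCA-32, 2 and 2 in OSCA-40, 5 and 4 in PBS, and 5 and 4 at week 0.

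The other IgG classes were as low. Ighg1 was at 4 and 3 in OSCA-32, 1 and 1 in OSCA-40, 4 and 7 in PBS, and 5 and 5 at week 0. Ighg2c was at 4 and 3 in OSCA-32, 3 and 1 in OSCA-40, 7 and 5 in PBS, and 4 and 4 at week 0. Ighg3 was at 2 and 3 in OSCA-32, 1 and 2 in OSCA-40, 4 and 2 in PBS, and 4 and 3 at week 0, so its groups overlap. The percent of protein-coding mouse genes with a lower mean was 72.7 for Igkc and 69.2 for Jchain, and between 32.1 for Ighm and 51.9 for Ighg2c among the other 5. Jchain, Ighm, Igha, Ighg1, Ighg2c and Ighg3 did not reach 10 in at least 2 libraries and were not tested.

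**Figure D4:**
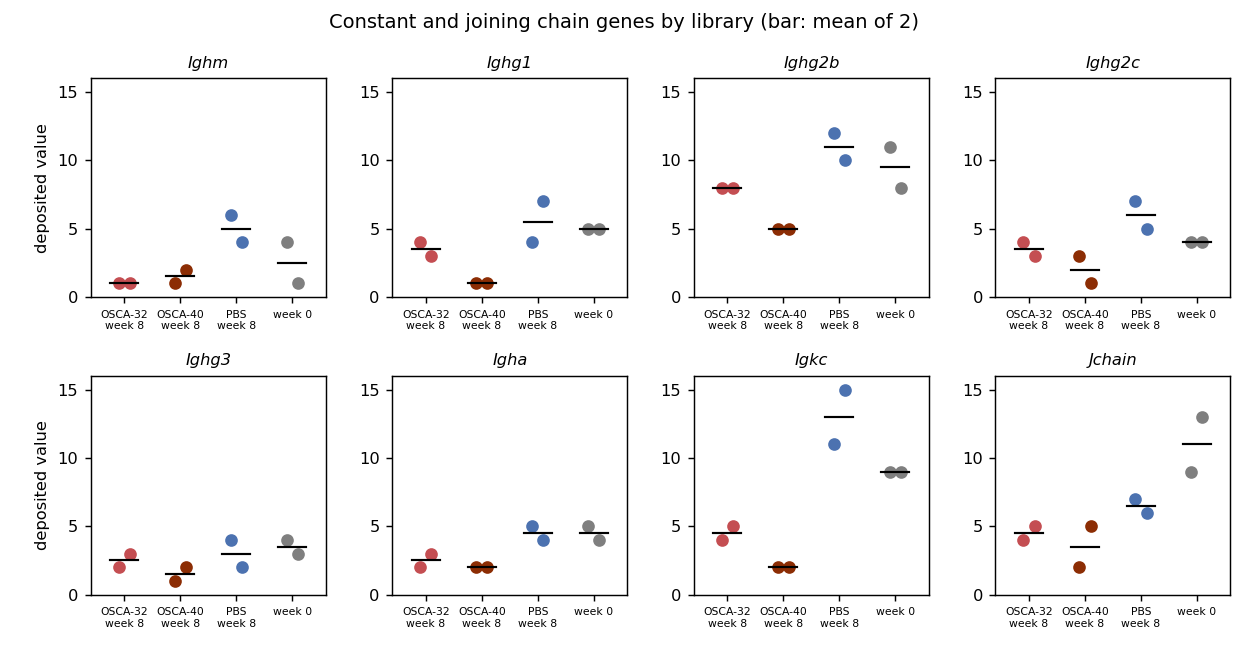
Deposited values of the 8 constant and joining chain genes in each library. Points are libraries and bars the mean of 2. Igkc is at 2 to 5 in tumour libraries and 9 to 15 in tumour-free ones, and Ighg2b has the highest level of the 6 heavy chain constants.

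Single segments varied widely between libraries of the same group. Across the 185 segments, Spearman's rho between the 2 libraries of a group was 0.203 to 0.281, and between libraries of different groups 0.0809 to 0.332. Over all mouse genes it was 0.682 to 0.802 within groups. The rho of a segment list rests on low whole-number values that share library, depth and sequence, and it is given as a description. The values within groups lay inside the range of those between groups.

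Ighv1-24 had the highest mean of all segments and was listed at 12 and 13 in OSCA-32, 1 and 9 in OSCA-40, 19 and 23 in PBS, and 7 and 20 at week 0. Its near copy Ighv1-16 was at 0 and 0 in OSCA-32, 0 and 4 in OSCA-40, 4 and 0 in PBS, and 7 and 3 at week 0. The week 0 libraries of Ighv1-24 span from below OSCA-32 to PBS values, and its log2 fold changes against PBS were -0.15 ± 0.87 for OSCA-32 (limma adjusted p = 0.977) and -0.98 ± 0.87 for OSCA-40 (limma adjusted p = 0.58). Ighv1-62-1 differed by at most 1 between the libraries of each group, at 10 and 10 in OSCA-32, 4 and 3 in OSCA-40, 9 and 9 in PBS, and 14 and 15 at week 0. Its log2 fold change was 0.67 ± 0.24 for OSCA-32 against PBS (limma adjusted p = 0.378) and -0.68 ± 0.24 for PBS against week 0 (limma adjusted p = 0.961).

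Ighv1-62-2 was at 8 and 6 in OSCA-32, 4 and 1 in OSCA-40, 12 and 4 in PBS, and 12 and 4 at week 0. Ighv1-71, whose coding exon is the same, was listed at 0 in all 4 tumour libraries, at 0 and 4 in PBS, and at 0 and 10 at week 0. In the PBS and week 0 pairs, the library with the lower Ighv1-62-2 value was the one with Ighv1-71 above 0. Ighv1-34 was at 8 and 12 in OSCA-32, 2 and 4 in OSCA-40, 5 and 0 in PBS, and 5 and 11 at week 0, and its log2 fold change against PBS, 2.64 ± 0.87 for OSCA-32 (limma adjusted p = 0.327), rests partly on the PBS library listed at 0.

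The rest of the 12 highest segments also varied within groups. Ighv1-23 was at 9 and 5 in OSCA-32, 8 and 5 in OSCA-40, 14 and 5 in PBS, and 5 and 12 at week 0. Ighv1-58 was at 4 and 5 in OSCA-32, 0 and 6 in OSCA-40, 11 and 9 in PBS, and 3 and 9 at week 0. Ighv1-77 had its highest deposited values at week 0, with 17 and 9, against 4 and 5 in OSCA-32, 0 and 3 in OSCA-40, and 5 and 2 in PBS. The other 4 are annotated as pseudogenes. Ighv1-70 was at 11 and 3 in OSCA-32, 4 and 7 in OSCA-40, 10 and 11 in PBS, and 4 and 14 at week 0. Ighv1-27 was at 8 and 10 in OSCA-32, 3 and 5 in OSCA-40, 3 and 16 in PBS, and 5 and 5 at week 0. Its 2 PBS libraries lay farther apart than any of its group means. Ighv1-46 was at 7 and 4 in OSCA-32, 3 and 2 in OSCA-40, 9 and 14 in PBS, and 1 and 9 at week 0. Ighv8-16 was at 3 and 2 in OSCA-32, 1 and 5 in OSCA-40, 15 and 9 in PBS, and 7 and 5 at week 0. Both PBS libraries were above the other 6 as deposited. After scaling, the second OSCA-40 library, at 15.3, was above the PBS libraries, at 14.4 and 8.54.

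**Figure D5:**
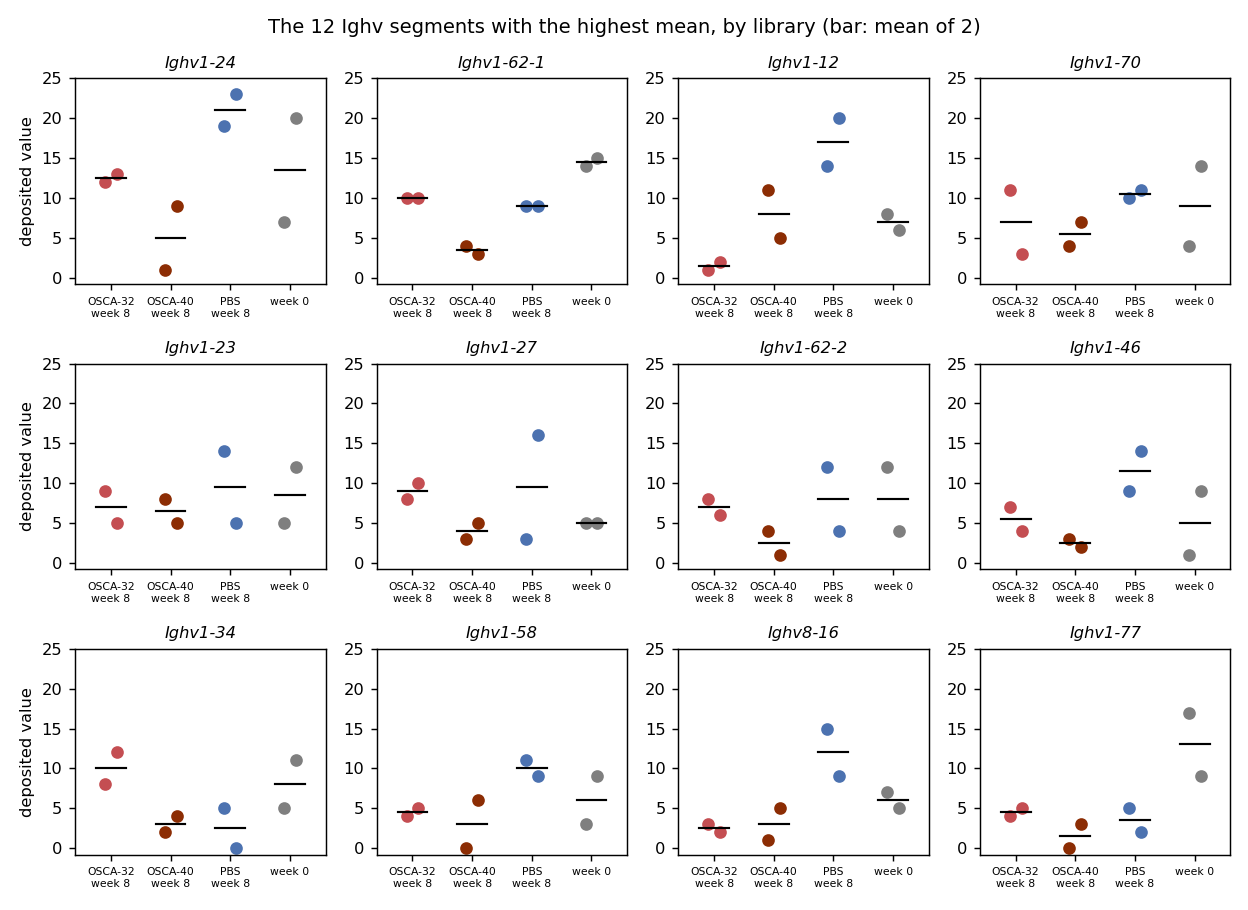
Deposited values of the 12 variable segments with the highest mean over the 8 libraries. Points are libraries and bars the mean of 2. Most panels show libraries of 1 group far apart, such as Ighv1-27 at 3 and 16 in PBS, while Ighv1-12 is at 1 and 2 in OSCA-32 against 14 and 20 in PBS.

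Only 13 of the 193 members reached 10 in at least 2 libraries and could be tested with limma, 11 segments together with Ighg2b and Igkc. Another 39 reached 10 in a single library and 141 in none, so the tests speak for the highest members alone. For OSCA-32 against PBS, 0 of 13 were called at an adjusted p under 0.05, where 1.08% of all 7872 tested genes were, and 4 of the 13 had an unadjusted p under 0.05, as did 10.3% of all genes. For OSCA-40 against PBS, 0 of 13 were called against 6.83% of all genes, and 1 had an unadjusted p under 0.05, as did 20.8% of all genes. The mean of both lines against PBS gave 0 of 13 against 4.45% of all genes, with 3 at an unadjusted p under 0.05, as were 16.6% of all genes. PBS at week 8 against week 0 gave 0 of 13 against 0.191% of all genes, with 2 at an unadjusted p under 0.05, as were 4.71% of all genes.

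Positive and negative log2 fold changes among the 13 numbered 7 and 6 for OSCA-32 against PBS, 7 and 6 for OSCA-40 against PBS, and 9 and 4 for PBS against week 0. The segments among them had a median of 0.22 for OSCA-32 and 0.25 for OSCA-40 against PBS, beside medians of 0.00 and -0.02 over all tested genes. The highest segment values in the OSCA-40 libraries were 11 and 9, so each tested segment passed the filter at least partly through other groups. The range of fold changes among the 13 was wide, from -2.47 to 2.64 for OSCA-32 and from -1.26 to 1.99 for OSCA-40. The lowest value for OSCA-40 belonged to Ighv5-7, listed at 0 and 12 in OSCA-32, 0 and 2 in OSCA-40, 3 and 10 in PBS, and 0 and 0 at week 0. A further pair of segments was as uneven, Ighv8-12 with 3 and 11 in OSCA-32, 0 and 2 in OSCA-40, 4 and 4 in PBS, and 11 and 8 at week 0, and Ighv1-75 with 12 and 1 in OSCA-32, 0 and 3 in OSCA-40, 10 and 4 in PBS, and 2 and 7 at week 0.

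A single member passed the test in any comparison. Ighv1-12 was listed at 11 and 5 in OSCA-40 and at 1 and 2 in OSCA-32, beside 14 and 20 in PBS and 8 and 6 at week 0. The OSCA-40 libraries were above the OSCA-32 libraries even as deposited, although OSCA-40 libraries hold less mouse RNA, and the OSCA-32 libraries were the lowest of the 8. Ighv1-12 rose by 2.93 ± 0.46 on the log2 scale in OSCA-40 against OSCA-32 (limma adjusted p = 0.0237), as 1 of 13 members called where 2.54% of all tested genes were. Against PBS its log2 fold change was -2.47 ± 0.46 for OSCA-32 (limma adjusted p = 0.0708) and 0.46 ± 0.46 for OSCA-40 (limma adjusted p = 0.625), and that of PBS against week 0 was 1.11 ± 0.46 (limma adjusted p = 1). The call ended when any library but the second OSCA-40 one was left out (limma adjusted p from 0.0537 to 0.0973), and with only the 2 groups in the fit it was not tested, because it then reached 10 in 1 library.

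Without a test, the members can be counted by whether both libraries of one group lay beyond both of the other. As deposited, OSCA-32 was below PBS in 57 of the 182 segments listed above 0 in either group (31.3%), against 42.5% of all mouse genes, and in 6 of the 8 constants. As deposited, OSCA-40 was below PBS in 92 of 184 segments (50%), against 74.8% of all mouse genes, and in 7 of the 8 constants. In both comparisons the share of segments was below that of all mouse genes, which was not tested.

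After scaling, OSCA-32 was below PBS in 47 of 182 segments (25.8%, against 20.2% of all mouse genes) and above in 16 (8.79%, against 16.9%). OSCA-40 was below PBS in 32 of 184 (17.4%, against 21.5%) and above in 27 (14.7%, against 23.4%). PBS at week 8 was above week 0 in 41 of 183 (22.4%, against 15.1%) and below in 28 (15.3%, against 21.9%). OSCA-40 was above OSCA-32 in 32 of 177 (18.1%, against 23.9%) and below in 26 (14.7%, against 16.1%). The 2 comparisons with PBS and the one of PBS with week 0 share the PBS libraries. The summed segments were highest in PBS as deposited and in ppm, but after scaling the second OSCA-40 library was higher, at 821. All these shares of segments lie within 10 percentage points of the background after scaling. Of the 8 constants, scaling left 2 below PBS in OSCA-32 (25%, against 20.2% of all mouse genes) and 0 above. In OSCA-40 it left 2 below PBS (25%, against 21.5%) and 2 above (25%, against 23.4%).

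Some segments were listed in one condition and at 0 in another. Ighv14-4 and Ighv8-7 were at 0 in all 4 tumour libraries and above 0 in all 4 tumour-free ones. That is 1.08% of the 185 segments, against 0.361% of mouse genes, 1.2% of T cell receptor segments and 0% of kappa segments. Ighv14-4 is annotated as functional and was at 5 and 6 in PBS and 2 and 1 at week 0. Ighv8-7 is a pseudogene and was at 9 and 9 in PBS and 6 and 2 at week 0. No segment showed the reverse pattern, against 0.0224% of mouse genes. At 0 in both OSCA-32 libraries and above 0 in both PBS libraries were 14 segments (7.57%, against 1.73% of mouse genes), and for OSCA-40 there were 23 (12.4%, against 6.90%). Kappa segments had 3.75% for OSCA-32 and 11.2% for OSCA-40, and T cell receptor segments 3.59% and 5.39%. The mouse share is lower in the tumour libraries and the segments are low, and the part of this in these counts was not tested.

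By family, the number after Ighv in the symbol, Ighv1 held 93 of the 185 segments and 57.7% of the summed values, against 50.3% of the segments. Ighv8 held 16 segments and 10.4% of the sum, and Ighv5 held 22 segments and 7.96%. Ighv1 stood at 523 ± 35.0 ppm of the mouse total in OSCA-32, 487 ± 136 in OSCA-40, 524 ± 5.00 in PBS and 463 ± 29.6 at week 0 (SD, n = 2 each), and its groups overlap in part. The 4 Ighv7 segments held 11.8 ± 1.49 ppm in OSCA-32, 38.2 ± 0.321 in OSCA-40, 21.7 ± 3.51 in PBS and 11.6 ± 4.21 at week 0. The 4 Ighv14 segments held 3.63 ± 0.0648 ppm in OSCA-32, 5.06 ± 2.62 in OSCA-40, 16.8 ± 5.03 in PBS and 11.6 ± 5.94 at week 0. Ighv7 and Ighv14 were singled out after their values were seen, from 16 families. Along the chromosome, the median of means was 2.06 in the third of segments nearest the constant genes, 2.38 in the middle and 3.19 in the third farthest away.

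Markers of the cells that make antibodies were listed too, those of B cells at or above the median protein-coding gene in every library. The 15 B cell markers summed to 77 and 81 in OSCA-32, 48 and 42 in OSCA-40, 134 and 161 in PBS, and 135 and 131 at week 0, which is 142 to 154 ppm of the mouse total in tumour libraries and 161 to 194 in tumour-free ones. Their highest gene by mean was Cr2, a complement receptor of B cells, at 4 to 48, followed by Ms4a1, which encodes CD20, at 9 to 30. Cd79b, a defining part of the B cell receptor, had the lowest mean and was at 0 in 4 of 8 libraries. The 13 plasma cell markers held 59.2 to 76.0 ppm in tumour libraries and 45.1 to 70.8 in tumour-free ones, with Mzb1, an endoplasmic reticulum protein of plasma cells, at 1 to 6. The 12 T cell markers held 207 to 228 ppm in tumour libraries and 208 to 218 in tumour-free ones. The highest of them was Cd3d, a T cell receptor subunit, at 32 to 97, while its partner Cd3e was at 0 to 4.

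In ppm, the summed B cell markers were lower in every tumour library than in every tumour-free one. After scaling the sums overlapped, at 141 and 129 in OSCA-40, 129 and 153 in PBS, and 135 and 129 at week 0. Only OSCA-32, at 112 and 114, stayed below the tumour-free libraries. The sums include Cr2, which alone was at 14 and 48 in PBS. The part of these markers in the immunoglobulin values was not tested. Of the genes of these lists that could be tested, 0 of 6 B cell genes, 0 of 5 T cell genes and 0 of 9 kappa segments were called by limma in any of the 5 comparisons, and no plasma cell, pre-B or lambda gene reached the filter. Of 24 T cell receptor segments tested, 1 was called, Trav6-5, lower in OSCA-40 than in PBS. Over all tested genes, 6.83% were called in that comparison, and 0.191% to 6.83% across the 5 comparisons. The median log2 fold change of the 9 kappa segments was -0.07 for OSCA-32 and -1.08 for OSCA-40 against PBS. That of the 24 T cell receptor segments was 0.10 for OSCA-32 and -0.28 for OSCA-40. The highest OSCA-40 values were 8 and 8 for kappa and 12 and 8 for T cell receptor segments. Tested segments thus passed the filter at least partly through other groups, and these medians cannot show a fall in OSCA-40. Over all 160 kappa segments the scaled sum was 616 ± 4.92 in OSCA-40 and 646 ± 19.8 in PBS (SD, n = 2 each). Ighd and Ighe, the constant genes of IgD and IgE, were listed at 1 to 6 and at 2 to 5.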

How the data were processed

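Per the labels' protocols, the ExoQuick reagent served to enrich exosomes from pooled serum, a SeraMir kit to extract their RNA and a stranded pico-input kit to prepare total RNA libraries. FastQC 0.11.5, Trimmomatic 0.33.0 and kallisto 0.43.0 are named in the submitters' processing notes, beside the mouse build GRCm38.p5 and the dog build CanFam3.1. The authors deposited 1 whole number per gene and library, treated here as a score: it is called a count in the table, but every library sums to nearly the same total, as TPM over both species would. Whether values were rounded or shortened was not settled, and they keep no depth, so no count model, interval or floor was used.

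The first week 0 library served as the base to which the others were scaled by an unweighted trimmed mean of log ratios (30% of ratios and 5% of levels trimmed at each end). Genes at 10 or more in at least 2 libraries (7655 mouse and 217 canine) entered limma 3.58.1 (R 4.3.3) on log2(scaled value + 1), with a variance trend, all 8 libraries and 1 mean per group (4 residual degrees of freedom). Fold changes on this scale understate those of low genes. Adjusted p-values are Benjamini-Hochberg values over all 7872 genes in each of 5 comparisons, with a threshold of 0.05. The procedure was run on simulated data with known changes, with normal noise on the same log2 scale, for genes past the filter. The outcome is not reported here, and that run cannot speak for members below the filter. Sums, ratios, ranks and shared 31-base stretches were computed in Python 3.11.15 (pandas 2.3.3, SciPy 1.17.1). GENCODE M21 matched 31171 of 31300 mouse identifiers. No sequence was looked up beyond the exons shown.

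The members and lists were chosen with earlier results of these data known. Named are the 8 constant and joining chain genes, the 12 segments with the highest mean, any segment called, and the 3 largest fold changes in each direction among tested segments for each tumour line against PBS. Other segments named were picked after their values were seen. Same-numbered libraries did not deviate together, so no block was used. Alternatives covered scaling, pseudocount, filter, variance trend, the libraries in the fit and the genes summed.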

Additional observations from a re-analysis of the deposited data

Results flagged for a closer look

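The difference of Ighv1-12 between the tumour lines passed its test, with a log2 fold change of 2.93 ± 0.46 for OSCA-40 against OSCA-32 (limma adjusted p = 0.0237). The values behind it were 11 and 5 in OSCA-40 and 1 and 2 in OSCA-32. Both OSCA-40 libraries were above both OSCA-32 libraries. The call was lost in 7 of the 8 fits that left out 1 library (limma adjusted p from 0.0537 to 0.0973) and with the replicate number as a block (limma adjusted p = 0.0502). With 2 libraries a group, no library could be checked as standing apart from its group. The cause was not tested.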

How the results depend on the processing

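Depth is unknown, and 180 of 193 members were too low to test, so small changes were not detectable. Among the 65 named log2 fold changes, 998 of 1058 values under other settings kept their sign, and 60 changed it. Without the filter, all 193 members were tested. Called were 1 for OSCA-32 against PBS, 8 for OSCA-40 against PBS, 5 for the mean of both lines and 8 between the lines (OSCA-40 against OSCA-32). At a minimum of 5 in 2 libraries, 99 members were tested. Called were 3 for OSCA-40 against PBS, 1 for the mean and 3 between the lines. Library totals alone, with 13 members tested, gave 2 calls for OSCA-32 against PBS, 5 for OSCA-40 against PBS, 4 for the mean and 4 between the lines. The share of all genes called under these settings is not given, so the counts have no background beside them. Library totals alone leave the lower mouse share of tumour libraries in the values. That setting turned Ighg2b to -1.01, Ighv1-62-1 to -1.17 and Ighv1-12 to -1.08 for OSCA-40 against PBS, and Ighg2b to -0.71 and Ighv1-62-1 to -0.52 for the mean. PBS against week 0 had the same count of calls under all settings run.

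For OSCA-40 against OSCA-32, 0 members were called with only these groups in the fit, where 2 members passed the filter, and 0 with the replicate number as a block, where Ighv1-12 had an adjusted p of 0.0502 by limma. The block is no pairing: correlations of same-numbered deviations were -0.06 to 0.01. Leaving out 1 library gave 0 to 1 calls, with the lone library of its group assumed to vary like the others. A mean of at least 50 left no member to test.

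The ratio of segments to the 8 other members was 9.86 in OSCA-32, 8.31 in OSCA-40, 9.23 in PBS and 8.21 at week 0 with pseudogenes left out. It was 22.8 in OSCA-32, 18.9 in OSCA-40, 22.5 in PBS and 22.9 at week 0 without Igkc and Jchain. Both changes moved the ratio past the spread between libraries in every group. Without the highest segment the ratio was 13.0 in OSCA-40 and 13.99 in PBS, a smaller move but also past that spread. Leaving out 1 library gives only the ratio of the library that remains. These ratios were 15.4 to 16.6 in OSCA-32, 13.2 to 13.4 in OSCA-40, 14.2 to 14.5 in PBS and 13.0 to 13.7 at week 0.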
